A study of Mus musculus with 8 samples.

Results

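The genes of the C1q chains, the C3 pathway and the anaphylatoxin receptors were followed in tumour-associated macrophages of mice on a control or a high-fat diet. The 9 genes, taken by symbol, were C1qa, C1qb, C1qc, C3, C4b, Cfb, Cfp, C3ar1 and C5ar1, out of 42649 genes in the table. Each symbol matched 1 row, and all 9 passed the filter on low counts. C57BL/6 mice ate food with 10% (the control diet, CD) or 60% (the high-fat diet, HFD) of its calories as fat for 6 weeks. Every mouse of both groups then received MC38 colon carcinoma cells, injected into the spleen so that they seeded the liver. Liver metastases of 4 CD and 4 HFD mice were taken after 19 days, and cells with CD45, CD11b and F4/80 on their surface were sorted for RNA sequencing. The labels give neither the age nor the sex of the mice, and p-values measure the spread between these 8 libraries.

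Complement is a cascade of plasma proteins that tags particles for uptake and damages membranes. C1q is built from A, B and C chains and starts the classical pathway when it binds antibody or dying cells. Activation by any route cleaves C3, and the small fragments released from C3 and C5 act on G protein-coupled receptors of myeloid cells. The liver supplies most plasma complement, whereas tissue macrophages are a main source of C1q, which is widely used as a marker of resident and tumour macrophages.

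The libraries held 37180157 to 55717378 counts, a depth at which every gene of the set had at least 265 counts in every library. Levels are CPM, counts scaled to a common library total after TMM scaling in edgeR, unless FPKM (per length) is named. CD replicates 3 and 4 stood apart. A list of 8 neutrophil markers summed to 103530 and 105510 CPM in them, 1239 and 1498 CPM in CD replicates 2 and 1, and 239 to 6691 CPM in HFD. None of these 8 markers was at 0 in any library. The macrophage label was checked with Adgre1, which encodes F4/80. It was at 93.4 to 231 CPM in CD and 198 to 682 CPM in HFD, and Csf1r, the receptor of the macrophage growth factor, was at 149 to 235 and 160 to 473 CPM. HFD replicate 1 had the highest TMM factor (2.02, against 0.690 to 1.21 in the others), so scaling acts most on it: its C1qa level was 797 CPM with TMM and 1604 CPM by library size alone. CD replicates 3 and 4 had counts for 34495 and 33449 genes, against 21571 to 24556 elsewhere. The lists for epithelial and MC38 cells, dendritic cells and T cells summed to at most 14.7, 78.1 and 11.4 CPM.

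With all 8 libraries, 0 of the 9 genes passed the test between diets (edgeR quasi-likelihood, Benjamini-Hochberg adjusted p of 0.244 to 0.898 over 17367 genes). Over all genes tested, 0% were called higher and 0.00576% (1 gene) lower in HFD. At an unadjusted p under 0.05 stood 5 of the 9 genes, against 12.9% of all genes. DESeq2 called 2 of the 9 genes, C4b (adjusted p = 0.0190) and C5ar1 (adjusted p = 0.0346), against 3.68% of all genes. Those under an unadjusted p of 0.05 in edgeR were C4b and C1qa on the higher side and C3, C5ar1 and Cfb on the lower side. In 1 of 9 genes (C4b) the lowest HFD value exceeded the highest CD value, as in 3.57% of all genes, and in 2 of 9 (C3 and Cfb) the highest HFD value was under the lowest CD value, as in 4.80%. The median log2 fold change of all genes was 0.01.

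**Figure D1:**
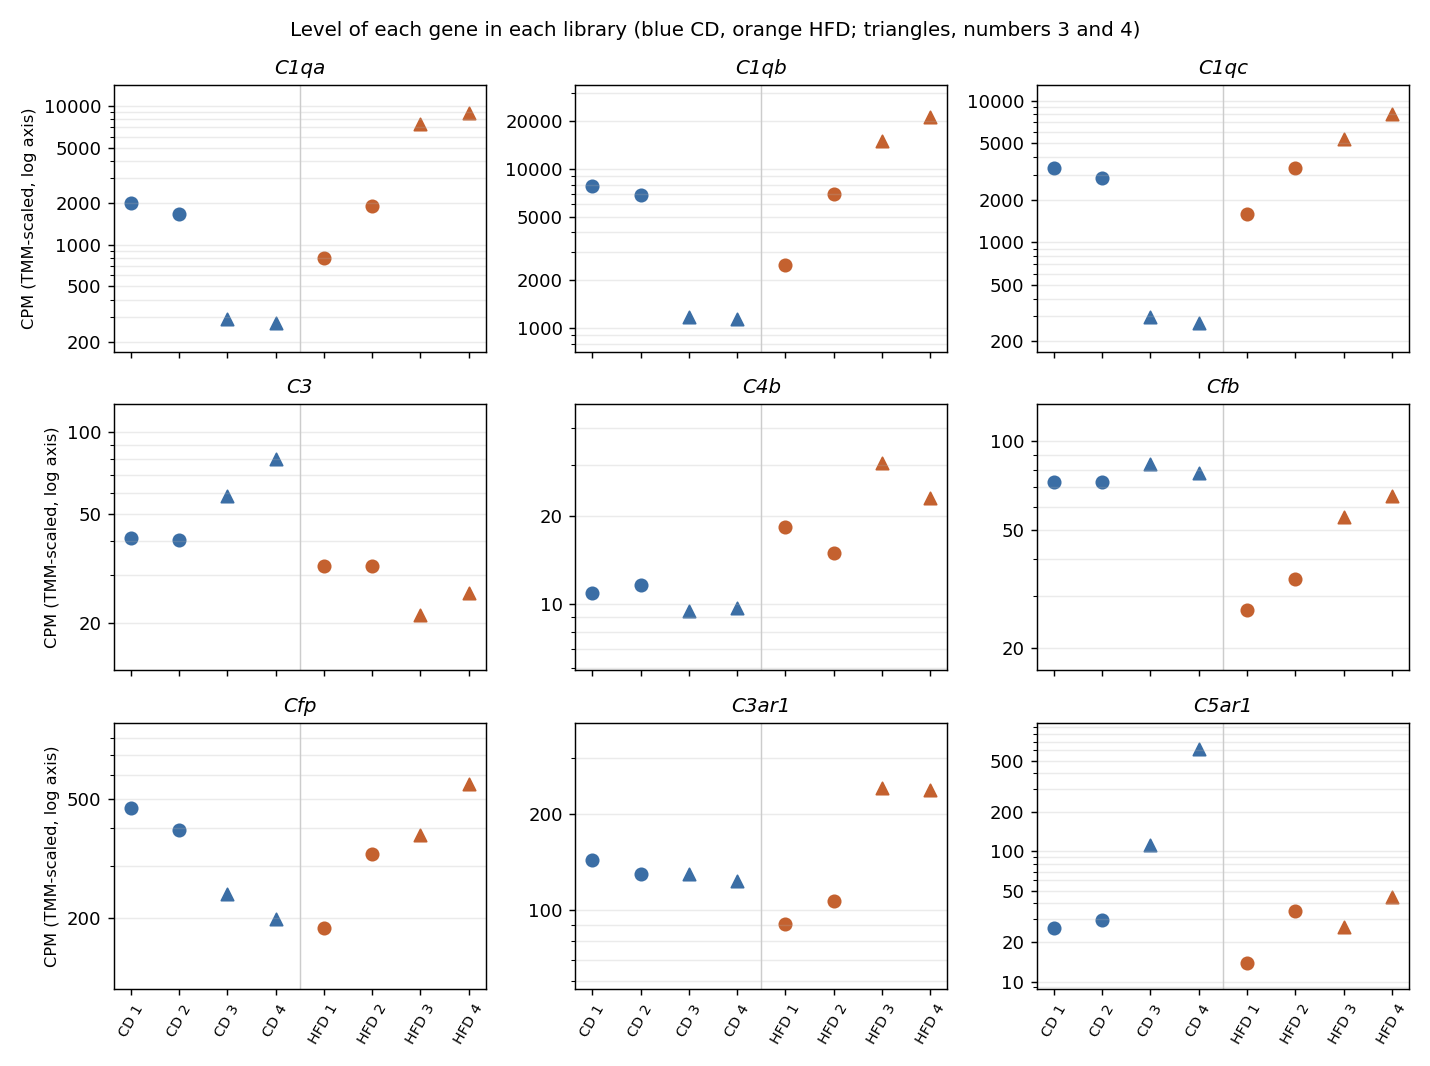
Level of each of the 9 genes (CPM, log axis) in each library, with CD in blue and HFD in orange, and replicate numbers 1 and 2 as circles and 3 and 4 as triangles. The C1q chains are lowest in CD replicates 3 and 4 and highest in HFD replicates 3 and 4, while C4b, C3 and Cfb separate the diets.

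The C1q chains ranked between 8th and 76th among all genes by FPKM in 6 libraries and between 97th and 400th in CD replicates 3 and 4, and their level differed widely between libraries of one diet. They are encoded side by side on the minus strand of chromosome 4 (GRCm38), in the order C1qb (136880129 to 136886187), C1qc (136889804 to 136893065) and C1qa (136895917 to 136898803). The 3 genes span 18675 bp, with gaps of 3616 and 2851 bp between them.

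C1qb, the B chain, was at 7854, 6926, 1167 and 1140 CPM in CD replicates 1 to 4. In HFD replicates 1 to 4 C1qb was at 2483, 6964, 15022 and 21195 CPM. CD replicates 3 and 4 were the lowest and HFD replicates 3 and 4 the highest, and the groups overlapped. By FPKM, C1qb ranked 8th to 12th in the HFD libraries, 13th and 15th in CD replicates 1 and 2, and 101st and 97th in CD replicates 3 and 4. In those last libraries C1qa ranked 239th and 237th and C1qc 376th and 400th.

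C1qa, the A chain, was at 1989, 1649, 289.6 and 271 CPM in CD and at 797, 1913, 7398 and 8858 CPM in HFD. C1qc, the C chain, was at 3339, 2843, 294 and 270.4 CPM in CD and at 1586, 3313, 5317 and 8049.9 CPM in HFD. All chains thus had the same low and high libraries, and each overlapped between diets. The log2 fold change, HFD minus CD, was 2.18 ± 0.93 (SE) for C1qa, 1.42 ± 0.89 for C1qb and 1.44 ± 0.90 for C1qc (adjusted p = 0.369, 0.511 and 0.509 in edgeR). Without CD replicates 3 and 4, the libraries with the high neutrophil sums, these were 1.37, 0.61 and 0.55. The SD over 4 libraries was nearly as large as the mean in CD, with C1qb at 4272 ± 3620 CPM there and 11416 ± 8332 CPM in HFD.

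The difference between diets was not alike in subsets by replicate number. Libraries with numbers 1 and 2 and those with 3 and 4 deviated from the mean of their diet in opposite ways over all genes, and no label says what the numbers stand for. This division was chosen with the values of these genes known, so the tests within and between the subsets restate that pattern and give it no independent support. Within numbers 1 and 2 the log2 fold changes were -0.42 ± 0.57 for C1qa, -0.64 ± 0.73 for C1qb and -0.33 ± 0.58 for C1qc, and 0 of the 9 genes and 0% of all genes were called (edgeR, 2 libraries per diet, adjusted p = 0.792, 0.745 and 0.845). At an unadjusted p under 0.05 stood 1 of the 9, Cfb. The C1q values in this subset depended on scaling, which acts most on HFD replicate 1. By library size alone C1qa was at 2114.5 and 1846 CPM in CD replicates 1 and 2 and 1604 and 2308 CPM in HFD. C1qb was then at 8347 and 7751 CPM in CD and 4998 and 8400 CPM in HFD. C1qc was at 3549 and 3181.5 CPM in CD and 3193 and 3997 CPM in HFD. Within numbers 3 and 4 the log2 fold changes of C1qa, C1qb and C1qc were 4.94 ± 0.40, 4.06 ± 0.46 and 4.65 ± 0.42. All 3 chains were called higher in HFD there (edgeR, adjusted p = 0.00108, 0.00279 and 0.00127). In that subset 6 of the 9 genes were called higher, against 11.5% of all genes, and 2 of 9 lower, against 16.5%. The CD spread in each subset came from a pair of libraries closer to each other than to the other CD libraries. The subset SEs and p-values in edgeR therefore do not measure the spread over all CD libraries.

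The interaction of diet with this division of the numbers was tested in 1 edgeR fit over the 8 libraries. It was 5.28 ± 0.76 for C1qa, 4.62 ± 0.92 for C1qb and 4.90 ± 0.75 for C1qc on the log2 scale (adjusted p = 0.00996, 0.0319 and 0.0120 in edgeR). The interaction passed the threshold in 3 of the 9 genes, the C1q chains, and in 3.85% of all genes, for a division that the C1q values had helped to choose. Without CD replicate 1, 2, 3 or 4 all 3 calls were lost (edgeR, adjusted p from 0.0595 to 0.169), with the C1q interactions between 4.57 and 5.46 and 0.352% to 0.776% of all genes called. Without HFD replicate 1 the interaction was called for 4 of the 9 genes and 5.83% of all genes, and without HFD replicate 2 for 7 of the 9 and 14.4%. Without HFD replicate 3 or 4 it was called for 2 of the 9, C1qa and C1qc, and for 0.888% or 1.05% of all genes.

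**Figure D2:**
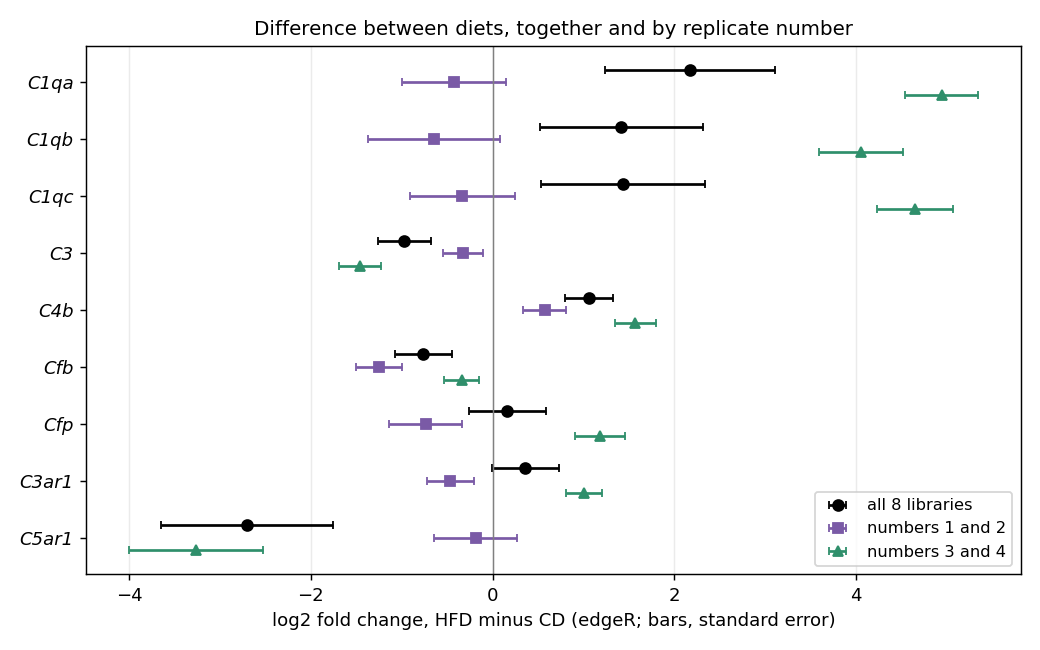
Log2 fold change between diets (HFD minus CD, edgeR, bars are the standard error) of each gene with all 8 libraries (black), with replicate numbers 1 and 2 (purple squares) and with 3 and 4 (green triangles). The C1q chains lie between -0.64 and -0.33 in the first subset and between 4.06 and 4.94 in the second, and C4b, C3 and Cfb keep their side of 0.

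Markers of other cells differed between the same libraries as C1q. CD replicates 3 and 4, lowest in C1q, had the highest sums of the neutrophil list (given above) and of the list of 6 classical monocyte markers, at 24060 and 20492 CPM against 1487 and 1895 CPM in CD replicates 2 and 1 and 773 to 4675 CPM in HFD. Within HFD the order was the other way, with neutrophil sums of 239, 1870.3, 3722 and 6691 CPM in replicates 1 to 4, lowest and highest in the same libraries as C1qb. S100a8 alone was at 91.1, 1429, 2881 and 5396 CPM in HFD replicates 1 to 4. S100a9, Ly6g, Cxcr2 and Retnlg had the same order, and Csf3r, Mmp8 and Mmp9 did not. None of the monocyte markers was at 0 in any library. The list of 7 Kupffer cell markers, genes of the resident liver macrophage, summed to 108 to 219.9 CPM in CD and 273 to 569.9 CPM in HFD, with HFD replicates 3 and 4 highest and no marker at 0. In bulk samples fewer cells of a type and less RNA per cell cannot be told apart. The part of these cells in the C1q result was not tested.

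C1q varied more between CD libraries than the macrophage core list of 8 genes. In CD the mean of this list was 8.74, 8.70, 8.64 and 8.55 log2 CPM in replicates 1 to 4, while the mean of the C1q chains was 11.87, 11.64, 8.86 and 8.77 log2 CPM. C1q therefore stood 3.13 and 2.94 log2 units above the list in CD replicates 1 and 2 and 0.22 and 0.23 above it in replicates 3 and 4. In HFD replicates 1 to 4 the distance was 2.37, 3.30, 3.36 and 3.54 log2 units, with the list itself at 8.14, 8.49, 9.67 and 9.95 log2 CPM. CD replicates 3 and 4 were the only libraries below 2.37. The even CD mean of the list came from members that differed in opposite ways. Adgre1 was at 209 and 231 CPM in CD replicates 1 and 2 and 100.1 and 93.4 CPM in 3 and 4, and Cd68 was at 1209 and 1023 against 678 and 575.5 CPM. The Fc receptor gene Fcgr1 was at 159.6 and 138 CPM in CD replicates 1 and 2 and 479 and 447 CPM in 3 and 4. The list includes Lyz2 and Ctsb, which monocytes and neutrophils also express.

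**Figure D3:**
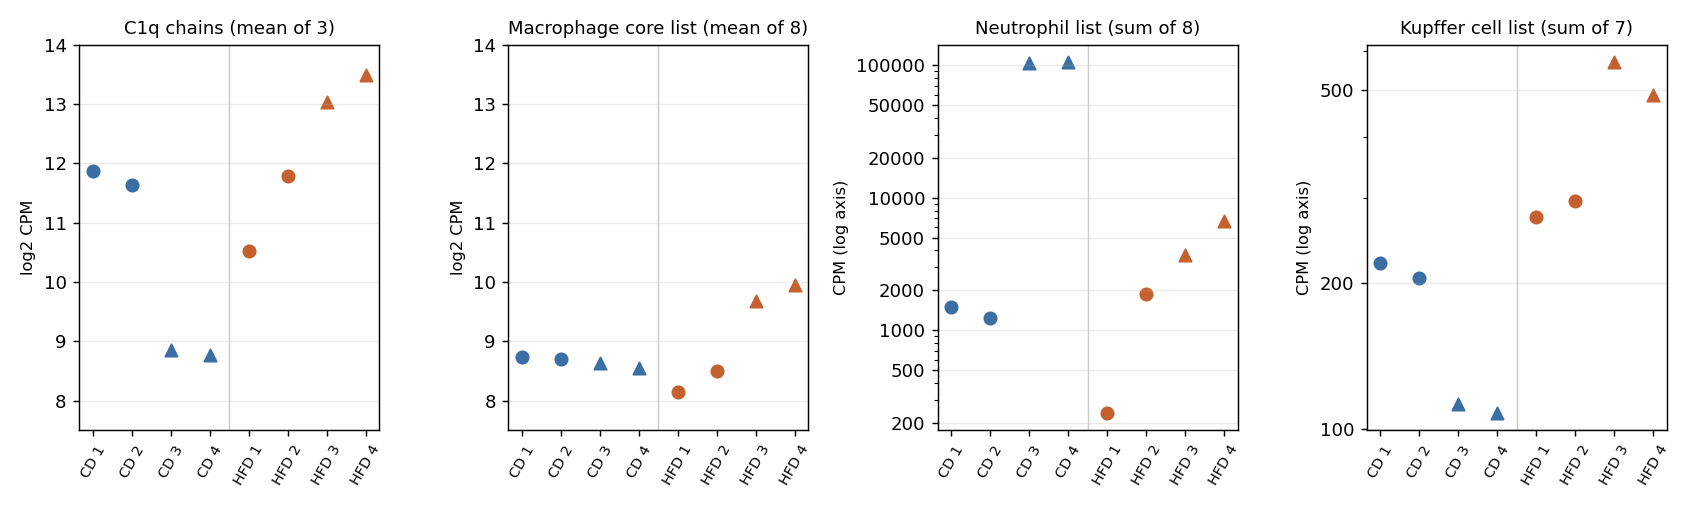
Mean of the C1q chains and of the macrophage core list (log2 CPM) and summed level of the neutrophil and Kupffer cell lists (CPM, log axis) in each library, with CD in blue and HFD in orange, and replicate numbers 3 and 4 as triangles. In CD the core list stays between 8.55 and 8.74 while C1q runs from 8.77 to 11.87.

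The chains did not have equal FPKM, a measure that was not checked against another one of transcript number. Per length, C1qb exceeded C1qa by 3.77, 4.01, 3.85 and 4.02 times in CD replicates 1 to 4 and by 2.98, 3.48, 1.94 and 2.29 times in HFD (ratio of FPKM). No HFD library reached the lowest CD ratio, so the diets did not overlap within numbers 1 and 2 or within 3 and 4. It averaged 3.91 ± 0.12 in CD and 2.67 ± 0.69 in HFD (SD, n = 4), and the two-sided exact permutation p over the 8 libraries was 0.0286, the smallest that 4 against 4 can give. Adjusted over the 3 ratios between chains it was p = 0.0857 (exact permutation, Benjamini-Hochberg), so the ratio did not pass.

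The other ratios were higher in every library with number 3 or 4 than in any with 1 or 2. C1qa over C1qc was 1.11 and 1.08 in CD replicates 1 and 2 and 0.932 and 1.07 in HFD replicates 1 and 2. It was 1.83 and 1.86 in CD replicates 3 and 4 and 2.58 and 2.04 in HFD replicates 3 and 4. C1qb over C1qc was 4.17, 4.32, 7.05 and 7.49 in CD replicates 1 to 4 and 2.78, 3.73, 5.01 and 4.67 in HFD. Within numbers 1 and 2 and within 3 and 4 its HFD values were below its CD values. Between diets the permutation p was 0.8286 for C1qa over C1qc and 0.2 for C1qb over C1qc (two-sided, exact). These ratios do not depend on how the libraries are scaled. They were examined after the values of the chains had been seen.

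**Figure D4:**
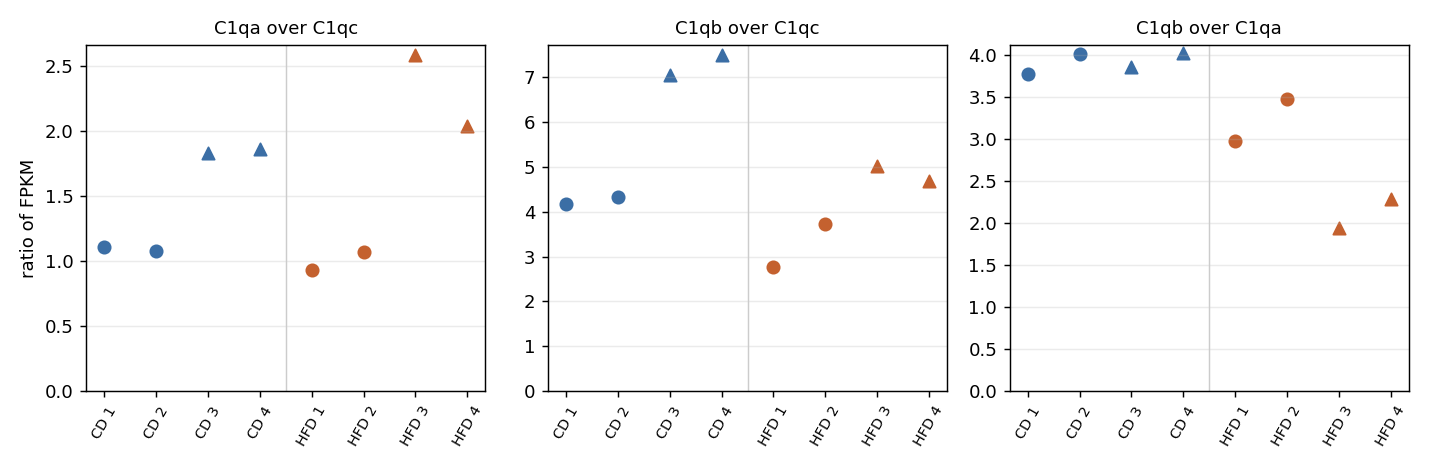
Ratio of FPKM between C1q chains in each library, with CD in blue and HFD in orange, and replicate numbers 3 and 4 as triangles. C1qb over C1qa is 3.77 to 4.02 in CD and 1.94 to 3.48 in HFD, and C1qa over C1qc is 1.83 or more with numbers 3 and 4 and 1.11 or less with 1 and 2.

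Of 5376 other genes with a mean of at least 10 CPM, those most like the mean C1q chain over the 8 libraries were Cd72, Ms4a7, H2ac8, Selenop and Hist1h2ao. Likeness is the root mean square difference of log2 CPM after centring each gene, which was 0.49 for Cd72 and 0.56 for Hist1h2ao, with a median of 1.62 over all of these genes. The chains themselves differed from each other by 0.37 to 0.51 on this measure. Ms4a7, a membrane gene of macrophages, was at 354, 296, 77.8 and 57.5 CPM in CD and 376, 395, 793 and 1151 CPM in HFD. Selenop, which encodes the plasma selenium carrier, was at 28.1 to 111 CPM in CD and 122 to 391 CPM in HFD, with no overlap.

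The sequence before the start of 2 neighbouring C1q genes is shown because these genes moved together across the libraries, and that of C3 because it moved otherwise. The RefSeq promoter table (GRCm38.p6) matched 6 of the 9 genes. The 250 bases before the start were searched on both strands for TGCTGA (a MAF half-site), GAGGAA (the core bound by the macrophage factor PU.1), TTNNGNAA (C/EBP) and TGANTCA (AP-1). Capitals mark the matches, and all genes shown lie on the minus strand. C1qb is chr4:136886201-136886450 and C3 is chr17:57228137-57228386. The last 151 bases of the C1qc window lie inside the gene as GENCODE annotates it, so only its first 99 bases are printed, chr4:136893066-136893164.
C1qb: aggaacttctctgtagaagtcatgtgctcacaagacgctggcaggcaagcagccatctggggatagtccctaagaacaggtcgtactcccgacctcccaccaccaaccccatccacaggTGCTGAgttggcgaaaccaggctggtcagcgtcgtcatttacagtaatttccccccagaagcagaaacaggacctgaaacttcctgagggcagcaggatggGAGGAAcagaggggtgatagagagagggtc
C1qc: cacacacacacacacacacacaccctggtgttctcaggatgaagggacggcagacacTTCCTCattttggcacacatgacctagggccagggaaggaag
C3: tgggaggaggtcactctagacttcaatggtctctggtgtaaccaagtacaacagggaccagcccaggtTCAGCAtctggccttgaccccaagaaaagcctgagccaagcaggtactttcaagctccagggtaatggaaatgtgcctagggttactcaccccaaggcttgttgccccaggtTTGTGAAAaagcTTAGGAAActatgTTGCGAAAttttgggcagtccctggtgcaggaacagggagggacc

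Both C1q windows held 1 PU.1 core, beginning 30 bases before the RefSeq start in C1qb and 193 in C1qc. In C1qc that start lies inside the gene as GENCODE annotates it, so the distances are not alike. There the core reads TTCCTC, from base 58 of the stretch printed. The C3 window held no PU.1 core, as was so for those of Cfp, C3ar1 and C5ar1. It held 3 C/EBP matches, beginning 70, 58 and 45 bases before the start. Of 32851 windows of this length 23.3% held the PU.1 letters, 36.8% the C/EBP letters, 16.1% the MAF half-site and 6.75% the AP-1 letters. The MAF half-site was present once each in C1qb, C3, C3ar1 and C5ar1, and the AP-1 letters once, in C3ar1. The C/EBP letters were also present once in the C1qc window, in the stretch not printed, and once in that of C5ar1. Such matches describe letters and are not sites of binding.

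C3, the component on which all routes meet (chromosome 17, 57203970 to 57228136), had lower values in HFD in a difference that did not pass. C3 was at 41.0, 40.1, 58.3 and 79.7 CPM in CD and 32.3, 32.3, 21.4 and 25.8 CPM in HFD. No HFD library reached the lowest CD library, and CD replicates 3 and 4 were highest. The log2 fold change was -0.97 ± 0.30 (SE, adjusted p = 0.265 in edgeR). The separation depended on scaling, since by library size alone HFD replicate 1 had 65.0 CPM, the highest of all 8. Within numbers 3 and 4 C3 fell (log2 fold change -1.46 ± 0.23, adjusted p = 0.00788 in edgeR), and within numbers 1 and 2 the value was -0.32 ± 0.22. Hepatocytes make most plasma C3 and factor B. The list of 8 hepatocyte markers had a lower sum in HFD too, at 66.4 to 104 CPM in CD and 24.2 to 54.2 CPM in HFD. Of these markers 4 were lower at an unadjusted p under 0.05 and 0 were called (edgeR), with Cyp2e1 at 0 in 1 CD library. Over HFD replicates 1 to 4 the sum rose (24.2, 34.3, 36.6 and 54.2 CPM), as Cfb did, while C3 was lowest in 3 and 4. The part of hepatocyte transcripts in the C3 and Cfb values was not tested.

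C4b encodes C4, the substrate of the C1 and lectin proteases, and shares most of its sequence with C4a, so reads of the pair cannot be fully told apart. C4b was at 10.9, 11.6, 9.43 and 9.64 CPM in CD and 18.3, 14.9, 30.4 and 23.0 CPM in HFD. It was higher in 4 of 4 HFD libraries than in any CD library, also by FPKM and by library size alone. The log2 fold change was 1.06 ± 0.27 (SE), and it did not pass (adjusted p = 0.244 in edgeR). C4a was at 0.379 ± 0.110 CPM in CD and 0.149 ± 0.150 CPM in HFD (SD, n = 4).

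C4b was called within numbers 3 and 4 (log2 fold change 1.57 ± 0.23, adjusted p = 0.00588 in edgeR) and not within 1 and 2 (0.57 ± 0.23, adjusted p = 0.422 in edgeR). The interaction for C4b was 0.92 ± 0.33 (adjusted p = 0.153 in edgeR), so a difference between the subsets was not shown. Fibroblasts also make C4, and a list of 6 fibroblast markers summed to 282, 268, 35.8 and 33.9 CPM in CD replicates 1 to 4. In HFD replicates 1 to 4 it summed to 680.5, 677, 204 and 138 CPM, and Lum was at 0 in 1 CD library. Within HFD this sum was highest in replicates 1 and 2, and C4b was highest in 3 and 4. The part of fibroblast or hepatocyte transcripts in the C4b values was not tested.

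Cfb encodes factor B, the protease of the alternative pathway convertase. Cfb was at 72.9, 72.8, 83.5 and 77.8 CPM in CD and 26.9, 34.2, 55.2 and 65.0 CPM in HFD. All HFD libraries were below all CD libraries, also by FPKM (12.3 to 16.5 against 17.8 to 24.1). The log2 fold change was -0.76 ± 0.31 (SE, adjusted p = 0.350 in edgeR), and here numbers 1 and 2 gave the larger value (-1.25 ± 0.25, adjusted p = 0.310 in edgeR) than numbers 3 and 4 (-0.34 ± 0.19, adjusted p = 0.221). The interaction was 0.83 ± 0.33 (adjusted p = 0.183 in edgeR) and did not pass. The annotated readthrough gene Gm20547 shares 2246 of the 2825 exonic bases of Cfb on the same strand and held at most 0.220 CPM in any library.

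Cfp encodes properdin, which stabilises that convertase and is made by myeloid cells. Cfp was at 466, 393, 242 and 199.8 CPM in CD and 186, 329, 379.8 and 562 CPM in HFD. The spread in HFD depended on scaling. By library size alone HFD was at 374, 396, 356 and 404 CPM and CD at 495, 440, 166 and 148 CPM. The groups overlapped over nearly their whole range (log2 fold change 0.16 ± 0.43, adjusted p = 0.898 in edgeR). Cfp was called higher within numbers 3 and 4 (1.18 ± 0.27, adjusted p = 0.0194 in edgeR) and was at -0.74 ± 0.40 within 1 and 2, with an interaction of 1.83 ± 0.52 that did not pass (adjusted p = 0.0871).

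The receptors of the C3 and C5 fragments differed from each other. C3ar1, the C3a receptor, was even in CD at 143, 130.1, 129.5 and 124 CPM. In HFD it was at 90.6, 107, 241 and 238 CPM, below every CD library in replicates 1 and 2 and above every CD library in replicates 3 and 4. This pattern depended on scaling. By library size alone HFD replicate 1 had 182 CPM, above every CD library, and CD was at 152, 146, 89.0 and 91.6 CPM. The log2 fold change was 0.36 ± 0.37 (SE, adjusted p = 0.694 in edgeR), and the interaction with the division of numbers was 1.39 ± 0.34 (adjusted p = 0.0586 in edgeR). Within numbers 3 and 4 C3ar1 was called higher (1.00 ± 0.20, adjusted p = 0.0157).

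C5ar1, the main C5a receptor, was at 25.9, 29.5, 113 and 612 CPM in CD and 13.965, 34.8, 26.3 and 44.7 CPM in HFD. CD replicates 4 and 3 were highest, and these libraries had neutrophil sums of 105510 and 103530 CPM. The log2 fold change of C5ar1 was -2.70 ± 0.95 (SE, adjusted p = 0.306 in edgeR), -0.89 without CD replicate 4 and 0.10 without CD replicates 3 and 4. With replicate number as a block it was -1.61 (adjusted p = 0.307 in edgeR). Neutrophils express C5ar1 strongly, and the part of neutrophil transcripts in its CD values was not tested. The genes on either side, C5ar2 at 2588 bp and Inafm1 at 12472 bp, were at 0.291 and 3.53 CPM in CD replicate 4, within or below the range of the other libraries.

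The genes most like C3 were Cdc42ep2, Cmtr1, Ogfr, St3gal1 and Rhbdf2 (root mean square difference of 0.11 to 0.18 log2 units, median of all 0.78). Those most like C5ar1 were Ccl3, Clec4e, Ly6a2, mt-Nd6 and Slfn5, and they were less close (0.66 to 0.68, median of all 1.70). The chemokine gene Ccl3 was at 418 to 503 CPM in CD replicates 1 and 2, 4209 and 4230 CPM in 3 and 4, and 243 to 968 CPM in HFD.

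Other genes of the cascade were taken from lists of 49 genes, of which 47 were in the table and 32 passed the filter. Of these 32 genes, 0 were called higher and 0 lower in HFD by edgeR, with 4 higher and 3 lower at an unadjusted p under 0.05, where 12.9% of all genes stood. DESeq2 called 4 of the 32 (12.5%), against 3.68% of all genes. Their median log2 fold change was 0.12, against 0.01 over all genes. The diets did not overlap in 3 genes with higher and 3 with lower HFD values, each of 32, where all genes gave 3.57% and 4.80%.

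Among recognition molecules and proteases 11 of 16 genes were tested, with a median of 0.20. Fcna, ficolin A, which recognises sugars and is made by liver and splenic macrophages, was at 38.8, 36.4, 22.2 and 13.97 CPM in CD. In HFD Fcna was at 68.9, 66.3, 139 and 151 CPM, above every CD library (log2 fold change 1.93 ± 0.42, adjusted p = 0.219 in edgeR). C1ra, a protease of the C1 complex, was at 2.81 ± 1.82 CPM in CD and 7.08 ± 1.92 CPM in HFD, and C1rl at 6.59 ± 2.69 and 4.14 ± 1.53 CPM (SD, n = 4). C1ra has a close copy, C1rb, with which reads may be shared. The C1 proteases tested, C1ra, C1rb and C1s1, had mean levels of at most 7.08 CPM.

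The terminal components, which form the membrane pore, were scarce. Of 7 genes 3 were tested, and C6 was at 2.81 ± 1.22 CPM in CD and 7.76 ± 3.06 CPM in HFD (SD, n = 4), with no overlap (adjusted p = 0.259 in edgeR). C8g was at 0.754 ± 0.438 and 1.06 ± 0.628 CPM and Hc, the C5 gene, at 0.774 ± 0.463 and 0.571 ± 0.235 CPM. Cfd, factor D, was at 0.249 ± 0.356 and 0.0105 ± 0.0211 CPM and did not pass the filter.

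Of 10 receptor genes 8 were tested. Vsig4, a receptor for C3b on Kupffer cells and a member of the Kupffer cell list too, was at 18.8 ± 8.86 CPM in CD and 49.2 ± 22.9 CPM in HFD (SD, n = 4, adjusted p = 0.274 in edgeR). Itgb2, the beta chain of complement receptor 3, was at 305 ± 95.7 and 167 ± 39.4 CPM (adjusted p = 0.328), and its HFD values were all below its CD values. C1qbp, which encodes a mitochondrial protein that also binds C1q, was at 24.4 ± 8.66 and 34.4 ± 3.03 CPM. Of 15 regulators 10 were tested, with a median of -0.63. Vtn, vitronectin, which blocks the terminal complex, was at 3.65 ± 0.578 and 0.812 ± 0.208 CPM (log2 fold change -2.16 ± 0.33, adjusted p = 0.150 in edgeR), and the hepatocyte list was lower too. Clu, clusterin, was at 17.3 ± 3.28 and 9.71 ± 1.35 CPM (adjusted p = 0.262), and Cd55, a membrane inhibitor of the convertases, at 1.96 ± 0.572 and 1.16 ± 0.346 CPM.

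**Figure D5:**
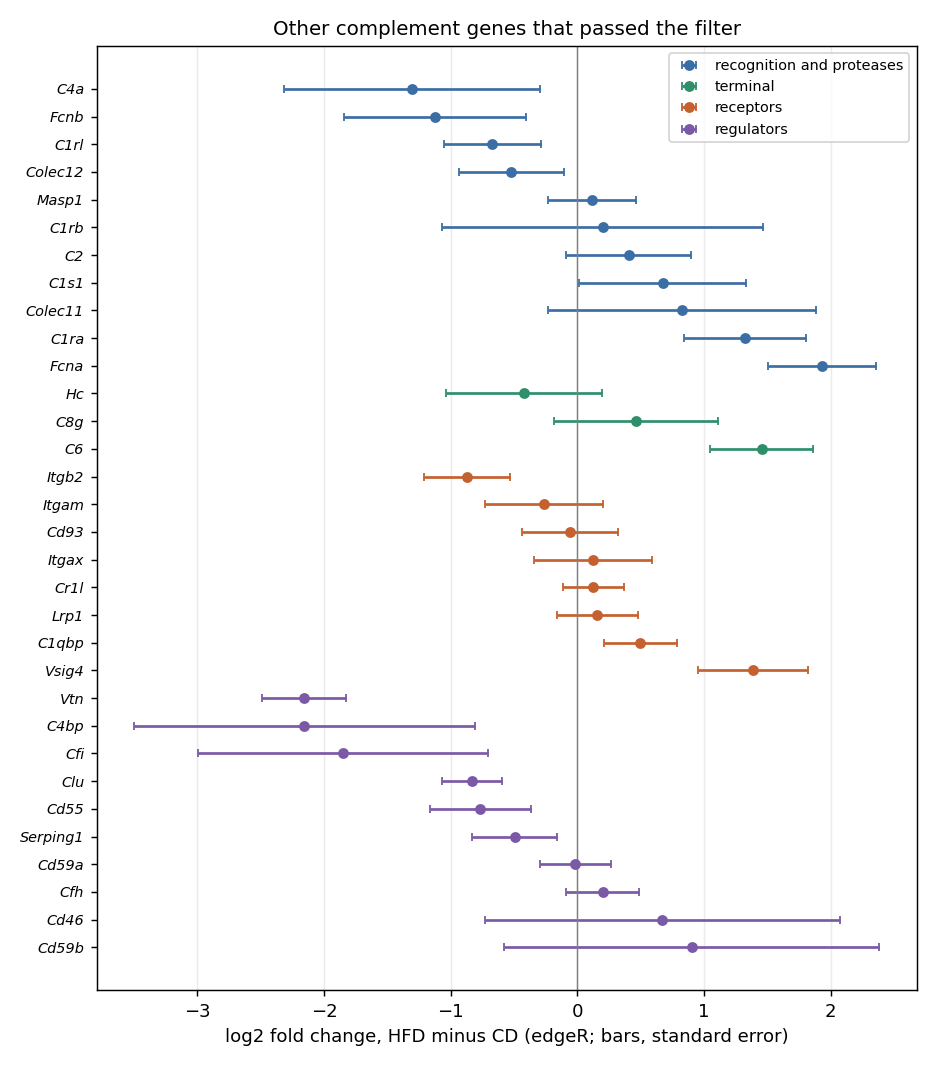
Log2 fold change between diets (HFD minus CD, edgeR, all 8 libraries, bars are the standard error) of the 32 other complement genes that passed the filter, by list. Fcna, C6, Vsig4 and C1ra lie furthest to the right with small bars and Vtn furthest to the left, and 0 of these genes passed the test.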

How the data were processed

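RNA was measured in 8 libraries of oligo(dT)-primed SMARTer cDNA amplified by PCR, per the labels' protocols, which describe no molecular identifiers. Per the submitters' processing notes, HISAT2 2.0.4, StringTie 1.3.4d and cutadapt 1.9 were used, with no role stated, and the genome build is not given. The deposited table holds raw counts per gene and the authors' FPKM. Of 42649 identifiers 42502 were in GENCODE M21 (GRCm38) and 39373 had the same position, the 9 genes included.

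Counts were tested in edgeR 4.0.16 (R 4.3.3) after filterByExpr and TMM, with a two-sided quasi-likelihood test on diet alone and Benjamini-Hochberg adjustment over all genes tested at a threshold of 0.05. Log2 CPM carries a pseudocount of 0.5. Alternatives were DESeq2 1.42.0, limma 3.58.1 on log2(FPKM + 1), other scalings and filters, libraries left out, subsets by replicate number and a replicate block. The tests were tested on simulated data with known changes. Libraries of one diet differed by more than sampling noise (median chi-square of 3.68 to 99.0, noise 0.455). CD 1 with CD 2 gave 4.71 and CD 3 with CD 4 gave 3.68, against 22.8 to 29.8 for the other pairs of CD libraries.

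Same-numbered CD and HFD libraries deviated together over all genes (correlations of 0.131, 0.329, 0.245 and 0.224, all over 0.1), so the numbers may pair the libraries. The values given are from the fit without the block unless a block is named, and the chain ratios were permuted without pairing. CD 1 with HFD 2 and CD 4 with HFD 3 correlated at 0.354 and 0.311, and CD 2 with HFD 1 and CD 3 with HFD 4 at 0.1895 and 0.259. Every HFD library thus correlated most with a CD library of another number, so the numbers are not the closest matches. Correlations were positive within numbers 1 and 2 and within 3 and 4, and negative between these subsets.

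The genes, lists and tests were chosen with earlier results of these data known. All 9 genes are named, with up to 3 tested genes per list by smallest p and the 5 genes most like C1q, C3 and C5ar1. C4a, C1rb, C1s1, Gm20547, Cfd, C5ar2, Inafm1 and the single marker genes were named after their values were seen. The interaction and the chain ratios were added after the data had been seen.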

Additional observations from a re-analysis of the deposited data

Results flagged for a closer look

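C5ar1 was at 612 CPM in CD replicate 4, and the gap to the next CD library was 0.852 of the range of the 4, above Dixon's 95% critical value. The ratio was taken on CPM without a log transform, and CD replicate 3 was raised too, at 113 CPM. Of 18 groups examined, chance alone flags about 1 in 20 if the values are normally distributed, which was not tested.

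For each C1q chain the estimated difference between diets was larger with replicate numbers 3 and 4 than with 1 and 2. This division was chosen with the C1q values known and the interaction was an added test, so its p-values in edgeR are no independent support. The interaction on the log2 scale was 5.28 for C1qa (adjusted p = 0.00996), 4.62 for C1qb (adjusted p = 0.0319) and 4.90 for C1qc (adjusted p = 0.0120). Without any one CD library these calls were lost (edgeR, adjusted p from 0.0595 to 0.169). What the replicate numbers stand for was not tested.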

How the results depend on the processing

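Over all genes edgeR called 1 gene. It called 415 with no filter on low counts, 356 with a term for the division of replicate numbers and 5624 with numbers 3 and 4 only. It called 0 with library size only, without CD replicates 3 and 4 together, and with numbers 1 and 2 only. DESeq2 called 639, and limma called 0 on log2(FPKM + 1) and 2 on log2(FPKM + 0.1). Leaving out single libraries gave 0 to 1. Of the 9 genes, 1 was called with no filter (C5ar1, adjusted p = 0.0287 in edgeR), 2 in DESeq2, 8 with numbers 3 and 4, and 0 in the other settings. Of the pathway genes 2 of 47 were called with no filter, against 0.973% of all genes, and 4 of 32 in DESeq2, against 3.68%. With the division term 2 of 32 were called, against 2.05%, and with numbers 3 and 4 it was 11 of 35 (31.4%), against 28.0%. The replicate block was run in the edgeR fit on all 8 libraries only, where it called 0 genes and 0 of the 9. It gave log2 fold changes of 2.22 for C1qa, 1.63 for C1qb, 2.09 for C1qc and -1.61 for C5ar1.

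C3, C4b and Cfb kept their direction in all 19 alternatives, with log2 fold changes of -1.46 to -0.32, 0.57 to 1.57 and -1.25 to -0.34. Others reversed. Without CD replicates 3 and 4 together Cfp was at -0.25 and C5ar1 at 0.10, while C1qa, C1qb and C1qc were at 1.37, 0.61 and 0.55. With numbers 1 and 2 only, C1qa was at -0.42, C1qb at -0.64, C1qc at -0.33, Cfp at -0.74 and C3ar1 at -0.46. These are values with TMM scaling, and those of C1q and C3ar1 depended on the scaling of HFD replicate 1. Leaving out single libraries moved Cfp between -0.10 and 0.42 and the count of genes with a called interaction between 0 and 7. The cause was not tested. The median log2 fold change of all genes was 0.42 by library size only and -1.01 with no filter.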
